A study of Mus musculus with 12 samples.

Results

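Fatty acid oxidation genes and targets of the nuclear receptor PPARA were followed in the livers of germ-free mice given growth hormone (GH). The set holds 38 genes named by symbol, all of which were found among the 38087 genes of the count table. By place and role they comprise 11 mitochondrial beta-oxidation genes, 5 genes of fatty acid activation and the carnitine shuttle, 7 peroxisomal genes, 6 acyl-CoA thioesterases and 9 genes of lipid handling or other PPARA targets. Cyp4a genes, ketone body enzymes and alpha-oxidation genes were not included. All 12 animals were male C57BL/6j mice, raised without a gut microbiota and aged 13 to 16 weeks. The GH group (6 livers) received recombinant human GH, injected subcutaneously at a labelled amount of 50 µg per mouse, while the PBS group (6 livers) received phosphate-buffered saline by the same route. Injections were made at ZT 2 and ZT 14 on 5 days (ZT, zeitgeber time, counts hours from lights-on), and livers were taken at ZT 2. Total RNA of whole liver was sequenced, so that fewer cells of a type and less RNA per cell cannot be told apart. The labels number the livers within a group but do not say how the animals were housed or processed, so p-values refer only to the variation among these samples, which may be technical.

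Beta-oxidation shortens a fatty acid by removing acetyl units from its activated form, an acyl-CoA. In mitochondria, long-chain acyl groups enter through the carnitine shuttle and are broken down by chain-length-specific dehydrogenases and the trifunctional protein. Peroxisomes shorten very long chains and dicarboxylic acids with their own enzymes, and thioesterases return acyl-CoA to free fatty acid and CoA. In hepatocytes PPARA, bound by fatty acids and paired with RXR, drives many of these genes in fasting. In hepatocytes GH signals by way of JAK2, a kinase, to the transcription factor STAT5.

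The libraries held 19523104 to 23278931 exonic counts, and TMM scaling factors ranged from 0.959 to 1.04. Over all genes tested, PBS 5 deviated most from its group (median absolute log2 deviation 0.202), followed by PBS 2 (0.180) and GH 6 (0.172). The hepatocyte markers, which are the defining genes of the labelled tissue, summed to 87990 to 106000 counts-per-million (CPM) in PBS livers and to 70680 to 97310 in GH livers, and 0 of 7 passed the edgeR test described next, which called 4.79% of all genes in either direction. Among other cell types edgeR called 0 of 8 Kupffer cell markers (summed 228 to 343 CPM in PBS, 235 to 302 in GH), 0 of 7 of sinusoidal endothelium (352 to 465, 383 to 457) and 0 of 6 of cholangiocytes (33.0 to 56.1, 34.1 to 51.9). At an unadjusted p under 0.05 there were 2 hepatocyte, 1 Kupffer cell, 2 endothelial and 1 cholangiocyte marker. DESeq2 called Alb lower and Sox9 higher. Alb made up most of the hepatocyte sums, with means of 74870 CPM in PBS and 62490 in GH livers. Among the other hepatocyte markers, Apoa1 and Serpina1c had higher means in GH livers, and Apoa2, Ttr, Tat and Hnf4a lower ones. Of 7 stellate cell and fibroblast markers (362 to 418, 336 to 400), Dcn alone was called, at 124 CPM in GH against 161 in PBS livers. Lists for adipocytes, lymphocytes, neutrophils and muscle each summed to less than 5 CPM in every library, with 2 of their 21 genes tested and 0 called by edgeR or DESeq2 (1 at an unadjusted p under 0.05). The adipocyte gene Lep was at 0 in all 12 libraries and Plin1 in 11. The part of these cell types in the results was not tested.

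Each gene was tested with edgeR's quasi-likelihood F test, two-sided, with Benjamini-Hochberg adjustment over 14235 genes and a threshold of 0.05. Of the 38 genes 37 were tested, and Acot3 was left out by the filter on low counts. Lower transcript levels in GH livers were found for 9 of the 37 genes (24.3%), beside 2.52% of all genes tested. By the same edgeR test 0 of the 37 were higher, beside 2.27% of all genes. DESeq2 called 10 of the 37 lower, beside 4.06% of all genes, and 0 higher, beside 3.63%. At an unadjusted p under 0.05, 2 had positive values (Creb3l3 and Ucp2). The 9 genes lower in edgeR were Acot4, Acot1, Acot2, Vnn1, Crat, Acaa1b, Ehhadh, Acsl1 and Hadh. An unadjusted p under 0.05 was reached by 17 of the 37 (45.9%), beside 19.0% of all genes. The median log2 fold change (GH minus PBS) was -0.16 for the 37 genes and 0.00 for all genes tested, with 28 values below 0 and 9 above. In 5 of them every GH library lay below every PBS library (Acot4, Acaa1b, Ehhadh, Acsl1 and Hadhb), a pattern shown by 1.72% of all genes, and the opposite pattern was shown by 0 of them and 1.45% of all genes. The plot of fold changes shows that the lower genes were 3 thioesterases and 6 genes spread over the other 4 classes, and that the mitochondrial values lay between -0.34 and 0.12.

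**Figure D1:**
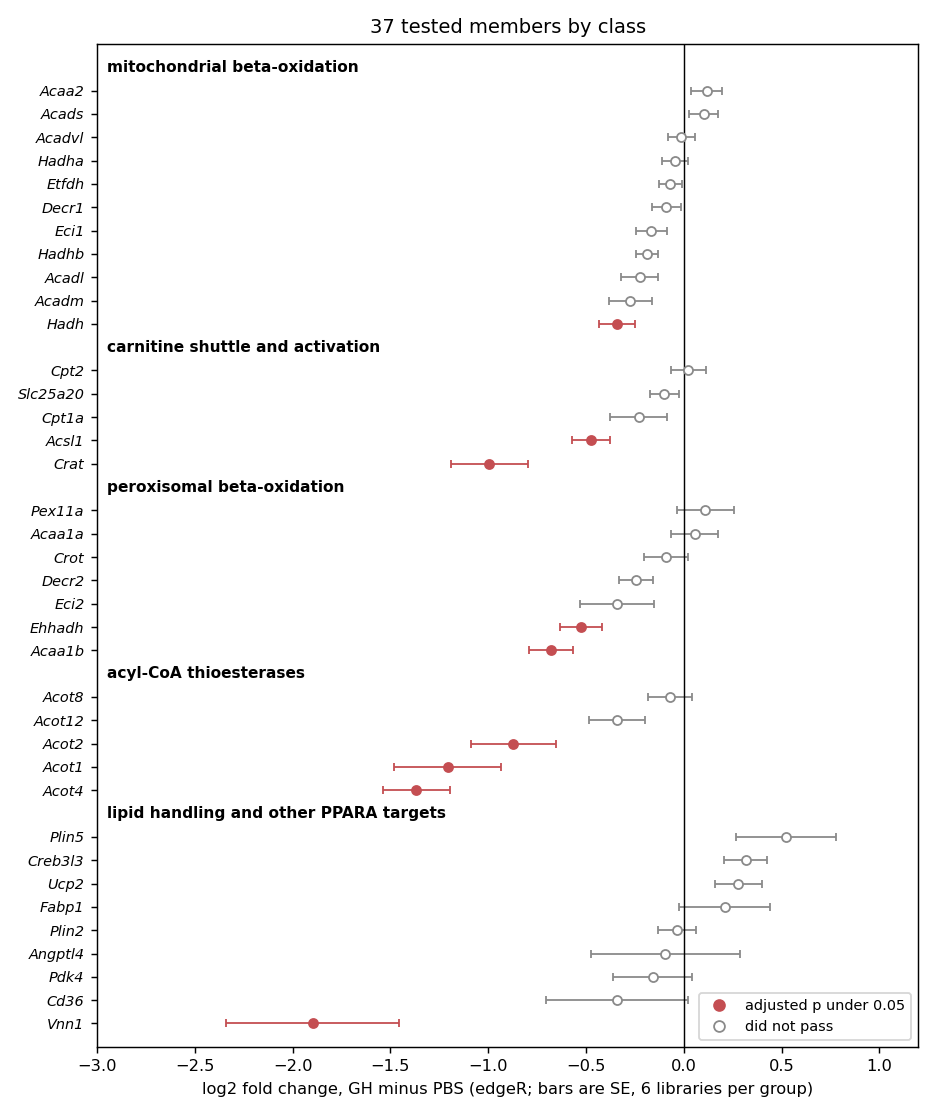
Log2 fold change (GH minus PBS, x axis) with its SE for the 37 tested genes, ordered within the 5 classes, from 6 libraries per group. Filled red points are the 9 genes with an adjusted p under 0.05, all to the left of 0, from Vnn1 at -1.90 to Hadh at -0.34, and open grey points did not pass.

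The thioesterases showed the lowest class median, -0.87 over 5 tested genes. Of these genes 3 fell (60.0%, beside 2.52% of all genes tested), and the others had negative values. Without this class the median of the other 32 genes was -0.10, and 6 of them were lower (18.8%, beside 2.52%). Other thioesterases and CoA hydrolases, outside the set, had a median of -0.11 over 8 tested genes. Of these 8, edgeR called 0 lower, beside 2.52% of all genes, and 12.5% had an unadjusted p under 0.05, beside 19.0%. Values below 0 were found for 6 of the 8. Whether the medians of the 2 lists differ was not tested, and both lists were chosen with earlier results of these data known. Acot2, Acot1, Acot4 and Acot3, of the type I family, lie in that order on the plus strand of chromosome 12 (GRCm38) and hydrolyse acyl-CoA in the mitochondrial matrix (Acot2), the cytosol (Acot1) and peroxisomes (Acot3, Acot4). In the GENCODE M21 annotation they span 83987861 to 83993873 (Acot2), 84009490 to 84018371 (Acot1), 84038379 to 84048601 (Acot4) and 84052144 to 84060402 (Acot3). The 250 bases before each RefSeq start (GRCm38.p6, plus strand, 5′ to 3′) are shown because these neighbours were low together. Capitals mark AGGTCA, the core motif of many nuclear receptors, on either strand.
Acot2, chr12:83987611-83987860: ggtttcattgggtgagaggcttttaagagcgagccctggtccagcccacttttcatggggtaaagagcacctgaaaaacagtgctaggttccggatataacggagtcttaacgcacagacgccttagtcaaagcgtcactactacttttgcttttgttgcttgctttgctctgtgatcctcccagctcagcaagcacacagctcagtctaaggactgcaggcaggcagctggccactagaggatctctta
Acot1, chr12:84009252-84009501: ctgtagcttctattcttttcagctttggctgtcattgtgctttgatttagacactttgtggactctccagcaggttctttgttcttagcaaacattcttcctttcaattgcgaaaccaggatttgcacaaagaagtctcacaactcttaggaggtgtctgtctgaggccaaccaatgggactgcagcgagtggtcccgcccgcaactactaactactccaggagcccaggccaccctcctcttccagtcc
Acot4, chr12:84038129-84038378: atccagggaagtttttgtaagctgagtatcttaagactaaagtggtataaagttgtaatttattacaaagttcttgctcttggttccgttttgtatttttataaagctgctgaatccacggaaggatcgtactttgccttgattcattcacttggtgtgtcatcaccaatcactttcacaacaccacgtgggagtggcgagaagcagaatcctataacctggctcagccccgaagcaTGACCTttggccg
Acot3, chr12:84051894-84052143: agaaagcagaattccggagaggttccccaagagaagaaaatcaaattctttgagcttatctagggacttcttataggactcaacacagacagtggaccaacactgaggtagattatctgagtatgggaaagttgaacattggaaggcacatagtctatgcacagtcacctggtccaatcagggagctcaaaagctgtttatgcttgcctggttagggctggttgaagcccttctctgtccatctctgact
Acot4 alone held the core motif in these letters, on the minus strand, where the match began 13 bases before the start. Acot3 held 1 beyond the stretch shown, 19 bases after its start.

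Acot4, which acts on dicarboxylic acyl-CoA in peroxisomes, ranged from 7.78 to 13.4 CPM in PBS livers (median 10.7) and from 3.22 to 6.09 in GH livers (median 3.96). All GH livers lay below all PBS livers. The log2 fold change was -1.37 ± 0.17 (SE, n = 6 per group, adjusted p = 0.000273), the smallest adjusted p of the set. It stayed under 0.05 whichever library was left out, with 0.00164 as the highest value.

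Acot1, the cytosolic long-chain enzyme, ranged from 4.37 to 18.5 CPM in PBS livers (median 10.9) and from 3.74 to 6.71 in GH livers (median 4.89). The groups overlapped through PBS 4 alone, the lowest PBS liver. The log2 fold change was -1.21 ± 0.27 (SE, n = 6 per group, adjusted p = 0.0252). The adjusted p rose above 0.05 without GH 2, GH 3, GH 4 or GH 5, to 0.0630 without GH 2, and was 0.000385 without PBS 4. Acot2, the matrix enzyme, was scarce, at 1.204 to 2.99 CPM in PBS livers (median 1.98; 24 to 69 counts) and 0.748 to 1.23 in GH livers (median 1.19; 15 to 28 counts). Again only PBS 4 reached into the GH range. Its log2 fold change was -0.87 ± 0.22 (SE, n = 6 per group, adjusted p = 0.0294), and the adjusted p rose above 0.05 without PBS 1, PBS 6, GH 1, GH 2, GH 3 or GH 4, to 0.0723 without GH 2.

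Acot3, a peroxisomal long-chain enzyme, was read from 39, 65, 14, 6, 78 and 60 counts in PBS 1 to PBS 6 and from 0, 3, 0, 0, 3 and 2 counts in GH 1 to GH 6. Every GH liver therefore lay below every PBS liver, although the PBS livers themselves differed widely. Over the pooled libraries the GH level was 3.16% of the PBS level, with an exact 95% interval of 1.35% to 6.32% that covers counting error only. When genes with low counts were kept in the fit, the adjusted p of Acot3 was 0.0115.

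The remaining thioesterases did not pass. Acot12, a cytosolic acetyl-CoA hydrolase, was at 126 ± 29.4 CPM in PBS and 99.0 ± 5.36 in GH livers (SD, n = 6; log2 fold change -0.34, edgeR adjusted p = 0.212). PBS 5 was far below its group at 68.3 CPM, and without it the log2 fold change was -0.47 with an adjusted p of 0.000546. In the other 11 fits that left out 1 library Acot12 did not pass (adjusted p up to 0.337). Acot8, a peroxisomal enzyme of broad specificity, was at 8.04 ± 0.774 and 7.66 ± 1.19 CPM (SD, n = 6; -0.07, adjusted p = 0.790). Of the neighbouring family members, Acot6 was at 0.706 and 0.630 CPM (-0.16, adjusted p = 0.810), and Acot5 had 0 counts in every library. Acot1, Acot2 and Acot3 share sequence: 9.48%, 13.7% and 12.1% of their 125-base exonic windows also occur in another gene, mostly of this family, against 0 for Acot4, so that reads may have been split or lost among the first 3. Acot3 and Acot4 also overlap the exons of a gene on the opposite strand, 4732463B04Rik.

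**Figure D2:**
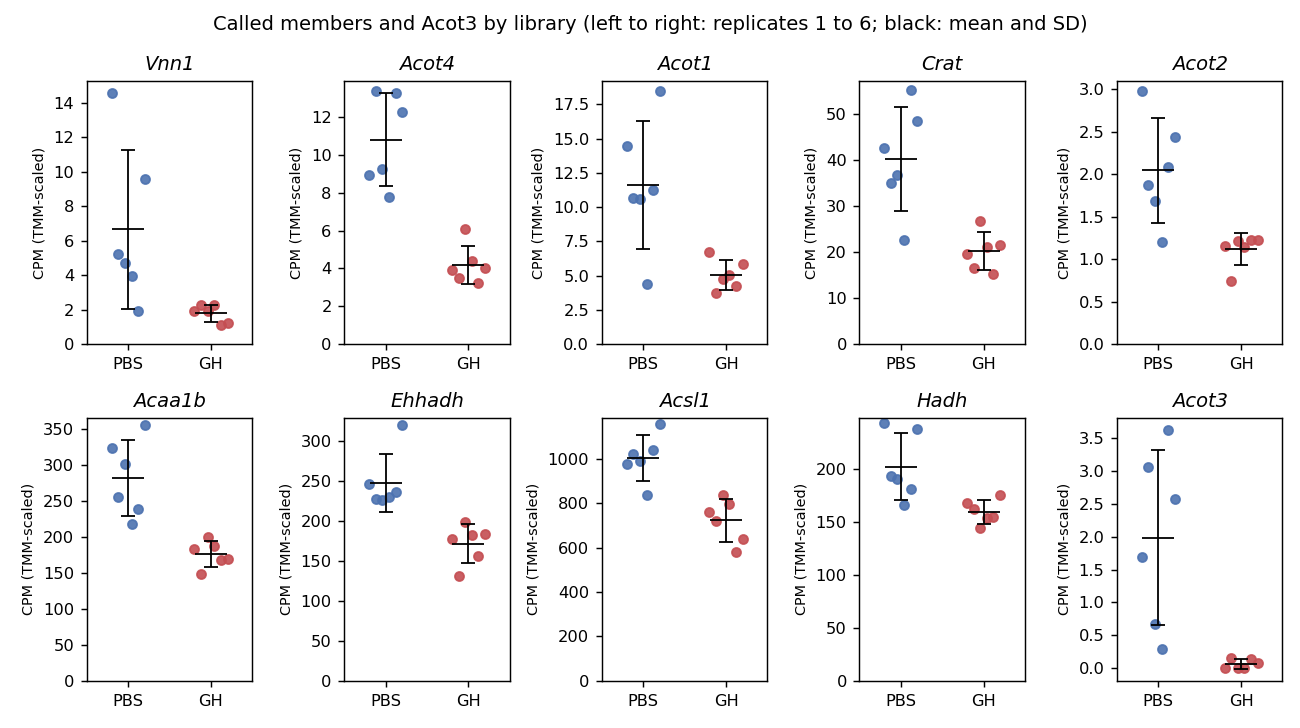
CPM after TMM scaling (y axis, from 0) in each of the 6 PBS (blue) and 6 GH (red) livers for the 9 lower genes and Acot3, with mean and SD in black. The groups do not overlap for Acot4, Acaa1b, Ehhadh, Acsl1 and Acot3, and the PBS livers spread more widely than the GH livers for Vnn1, Acot1 and Crat.

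Among the 7 peroxisomal genes the median log2 fold change was -0.25, and 2 fell (28.6%, beside 2.52% of all genes tested). Acaa1b, a thiolase that releases acetyl-CoA in the last step of the peroxisomal spiral, ranged from 218 to 355 CPM in PBS livers (median 279) and from 149 to 200 in GH livers (median 177). All GH livers lay below all PBS livers, with a log2 fold change of -0.68 ± 0.11 (SE, n = 6 per group, adjusted p = 0.00232). Ehhadh, the bifunctional enzyme that hydrates and dehydrogenates enoyl-CoA, ranged from 227 to 320 CPM in PBS livers (median 233) and from 132 to 199 in GH livers (median 180). These groups did not overlap either, PBS 6 standing above the other PBS livers, and the log2 fold change was -0.53 ± 0.11 (SE, n = 6 per group, adjusted p = 0.00913). Both calls held in all 12 fits that left out 1 library, with highest adjusted p-values of 0.00893 for Acaa1b and 0.0263 for Ehhadh.

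Acaa1a, the other peroxisomal thiolase gene, did not pass, at 78.6 ± 17.4 CPM in PBS and 81.7 ± 7.72 in GH livers (SD, n = 6; log2 fold change 0.06, adjusted p = 0.856). With scaling by library totals only, this small value turned to -0.0052. Acaa1b (minus strand, 119148023 to 119157093) and Acaa1a (plus strand, 119339676 to 119350299) lie on chromosome 9, and 14.8% of the windows of Acaa1b and 5.29% of those of Acaa1a occur in the partner. Decr2, a peroxisomal dienoyl-CoA reductase, was at 123 ± 18.1 and 104 ± 4.27 CPM (SD, n = 6; -0.25, adjusted p = 0.133). Without PBS 5 it passed (-0.32, adjusted p = 0.00684), but not in the other 11 fits that left out 1 library (up to 0.226). Eci2, the isomerase (-0.34), Crot, carnitine octanoyltransferase (-0.09), and Pex11a, a factor of peroxisome division (0.11), had adjusted p-values of 0.368 to 0.750.

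Of the 5 genes of activation and the carnitine shuttle, 2 fell, and the class median was -0.23. Acsl1, the main long-chain acyl-CoA synthetase of liver, ranged from 838 to 1155 CPM in PBS livers (median 1005) and from 581 to 836 in GH livers (median 740). The groups were separate by a narrow margin, between PBS 4 and GH 3, and the log2 fold change was -0.47 ± 0.10 (SE, n = 6 per group, adjusted p = 0.00982). Crat, which moves acetyl groups between CoA and carnitine, ranged from 22.7 to 55.1 CPM in PBS livers (median 39.7) and from 15.3 to 26.8 in GH livers (median 20.4). PBS 4 alone among PBS livers lay in the GH range. The log2 fold change of Crat was -0.99 ± 0.20 (SE, n = 6 per group, adjusted p = 0.0135). Both calls held whichever library was left out (highest adjusted p 0.0271 for Acsl1 and 0.0356 for Crat). The shuttle itself had smaller values: Cpt1a, the malonyl-CoA-sensitive entry enzyme, was at 326 ± 70.7 and 278 ± 55.2 CPM (SD, n = 6; -0.23, adjusted p = 0.433), and its log2 fold change was -0.13 without PBS 1 and -0.34 without GH 6. Slc25a20, the carrier across the inner membrane (-0.10, adjusted p = 0.511), and Cpt2, the matrix enzyme (0.02, adjusted p = 0.926), did not pass, and the value of Cpt2 turned to -0.034 with scaling by library totals only.

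The 11 mitochondrial genes had a median log2 fold change of -0.09, and 1 of them, Hadh, fell (9.09%, beside 2.52% of all genes tested). Hadh, the short-chain 3-hydroxyacyl-CoA dehydrogenase, ranged from 166 to 244 CPM in PBS livers (median 192) and from 145 to 176 in GH livers (median 158). The groups overlapped, with PBS 1 and PBS 6 highest. Its log2 fold change was -0.34 ± 0.09 (SE, n = 6 per group, adjusted p = 0.0460), and the adjusted p rose above 0.05 without PBS 1, PBS 3, PBS 6, GH 1, GH 2, GH 3, GH 4 or GH 5, to 0.114 without PBS 6. Hadhb, the thiolase subunit of the trifunctional protein, was at 93.8 ± 4.67 CPM in PBS and 82.2 ± 3.59 in GH livers (SD, n = 6) with no overlap between groups. Its log2 fold change of -0.19 had an adjusted p of 0.0644. The call varied with the setting: Hadhb passed without PBS 2 (0.0400), without PBS 5, without GH 6 and PBS 5 together (0.0410), with scaling by library totals only (0.0130) and in DESeq2 (0.00887). It did not pass in the other 10 fits that left out 1 library (up to 0.150), and without the filter on low counts the adjusted p was 0.211. In sequence, 13.3% of the 125-base exonic windows of Hadhb also occur in another annotated gene, Gm13910. Hadha, the other subunit of the same protein, was at 304 ± 19.1 and 295 ± 18.5 CPM (SD, n = 6; -0.05, adjusted p = 0.767).

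The acyl-CoA dehydrogenases, which start each round by chain length, did not pass. Acadm, for medium chains, was at 277 ± 45.4 and 229 ± 29.5 CPM (SD, n = 6; -0.27, adjusted p = 0.182), and Acadl, for long chains, was at 116 ± 15.9 and 99.3 ± 10.5 CPM (-0.23, adjusted p = 0.199). Acadvl, for very long chains, was nearly level at 315 ± 22.7 and 312 ± 20.8 CPM (-0.01, adjusted p = 0.951), and Acads, for short chains, was at 93.2 ± 9.23 and 100.1 ± 7.54 CPM (0.10, adjusted p = 0.505). Eci1, the isomerase for unsaturated chains, was at 70.6 ± 8.54 and 62.9 ± 3.88 CPM (SD, n = 6; -0.17, adjusted p = 0.256). The reductase Decr1 (-0.09), the electron carrier Etfdh (-0.07) and the thiolase Acaa2 (0.12) had adjusted p-values of 0.462 to 0.574. The class ranged from -0.34 to 0.12, with 9 of 11 values below 0 (81.8%, beside 49.9% of all genes tested) and 5 of 11 at an unadjusted p under 0.05 (45.5%, beside 19.0%).

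Peroxisomal enzymes were compared within each library with mitochondrial enzymes of the same step, or for Crot of the same kind (Cpt2, another carnitine acyltransferase). The measure was the difference of their log2(CPM + 0.5), which does not depend on library scaling. Group differences were tested with a two-sided exact permutation test over every assignment of the livers to groups and adjusted over the 6 pairs. Ehhadh minus Hadha was -0.31 ± 0.16 in PBS and -0.79 ± 0.24 in GH livers (SD, n = 6), a difference of -0.48 (exact p = 0.00217, adjusted p = 0.00650). Acaa1b minus Acaa2, the thiolases, was -1.20 ± 0.19 in PBS and -1.98 ± 0.22 in GH livers (SD, n = 6), a difference of -0.78 with the same exact p and adjusted p. This p is the smallest the design allows: in both pairs all 6 GH livers lay below all 6 PBS livers. The result concerns Ehhadh and Acaa1b rather than their steps as a whole. Hsd17b4, the second peroxisomal bifunctional enzyme, was at 336 ± 28.9 CPM in PBS and 325 ± 13.4 in GH livers (SD, n = 6; log2 fold change -0.05, edgeR adjusted p = 0.765). At the thiolase step the log2 fold changes of Acaa1a and Scp2 were 0.06 and 0.52, as described for each gene. Counts are per gene, so the value of Scp2 is not that of its thiolase product alone.

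The other pairs did not pass the exact permutation test. Decr2 minus Decr1 differed by -0.15 between groups (adjusted p = 0.182), Eci2 minus Eci1 by -0.13 and Crot minus Cpt2 by -0.10 (adjusted p = 0.616 for both). Acaa1a minus Acaa2 differed by -0.04 (adjusted p = 0.747), beside the -0.78 found with Acaa1b, and whether these 2 values differ was not tested. The difference between the groups was therefore found in 2 of 6 pairs, each holding a peroxisomal gene that fell by itself. The pairs were chosen with earlier results of these data known. Their p-values therefore add no support beyond the calls of Ehhadh and Acaa1b themselves.

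**Figure D3:**
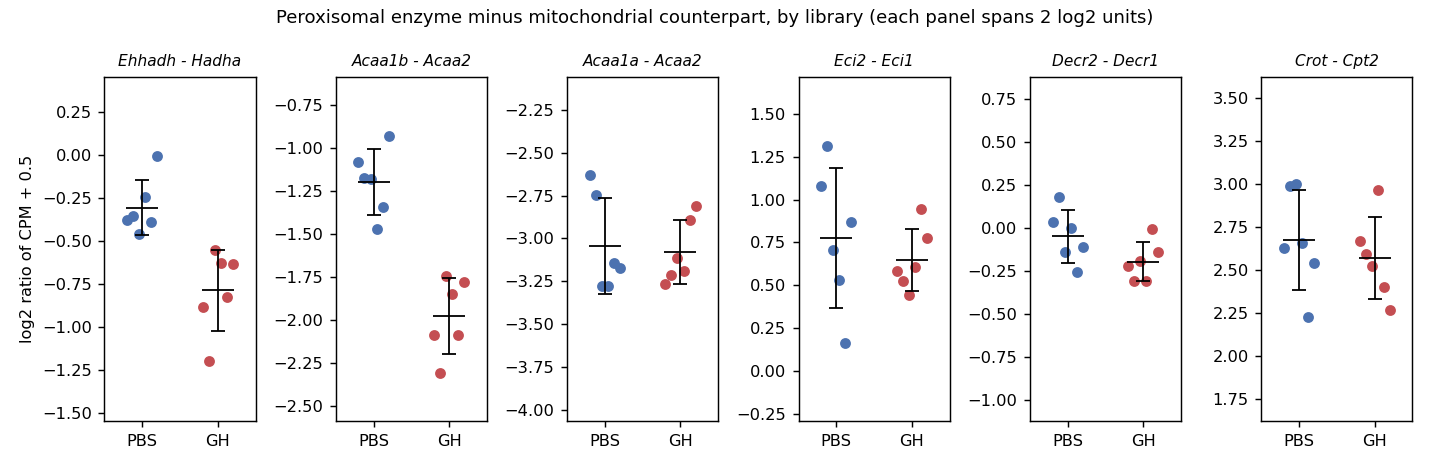
Log2 ratio of CPM + 0.5 between a peroxisomal enzyme and its mitochondrial counterpart (y axis, 2 log2 units in every panel) in each of the 6 PBS (blue) and 6 GH (red) livers, with mean and SD in black. GH livers lie below all PBS livers for Ehhadh against Hadha and Acaa1b against Acaa2, and the groups overlap in the other 4 panels.

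The 9 genes of lipid handling and other PPARA targets had a median log2 fold change of -0.04, with values from -1.90 to 0.52. Of these genes 1 was lower (11.1%, beside 2.52% of all genes tested). Vnn1, a pantetheinase that recycles a part of coenzyme A, ranged from 1.91 to 14.6 CPM in PBS livers (median 4.97) and from 1.14 to 2.29 in GH livers (median 1.92). PBS 5 lay within the GH range, and PBS 1 and PBS 6 were highest. The log2 fold change of -1.90 ± 0.44 (SE, n = 6 per group, adjusted p = 0.0316) was the lowest of the tested genes and had the widest SE. The adjusted p rose above 0.05 without PBS 6 or without any 1 of the 6 GH libraries, to 0.0743 without GH 5.

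The genes of this class with positive values did not pass. Creb3l3, a liver transcription factor that acts with PPARA, was at 161 ± 29.95 and 201 ± 20.2 CPM (SD, n = 6; 0.32, adjusted p = 0.118). Ucp2, a carrier of the mitochondrial inner membrane, was at 10.6 ± 2.07 and 12.9 ± 1.28 CPM (SD, n = 6; 0.28, adjusted p = 0.208). Plin5, a lipid droplet protein that binds mitochondria, was at 34.5 ± 8.87 and 49.6 ± 19.2 CPM (SD, n = 6; 0.52, adjusted p = 0.304), and GH 6 was highest at 81.5 CPM. Fabp1, the liver fatty acid binding protein, was at 1591 ± 320.0 and 1838 ± 564 CPM (SD, n = 6; 0.21, adjusted p = 0.690). Per kilobase of exon Fabp1 had the highest level of the 38 genes, at 2877 CPM per kilobase in PBS livers, and Acaa2 followed at 423. Acot3 had the lowest level on this scale, at 0.577, with Acot2 at 0.933 and Acot4 at 1.62, so the thioesterases that fell were among the scarcest transcripts of the set, while Acsl1 (95.7), Ehhadh (83.02) and Acaa1b (144) were among the abundant ones.

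Several classical PPARA targets showed no difference that passed. Pdk4, a kinase that limits glucose oxidation, was at 7.31 ± 2.4 and 6.54 ± 1.54 CPM (SD, n = 6; -0.16, adjusted p = 0.732). Angptl4, a lipoprotein lipase inhibitor, was at 130 ± 52.9 and 122 ± 40.9 CPM (-0.09, adjusted p = 0.931), and Plin2, the main lipid droplet coat of liver, was at 263 ± 33.7 and 257 ± 34.0 CPM (-0.04, adjusted p = 0.895). Cd36, a fatty acid uptake protein, was at 66.4 ± 27.9 and 52.3 ± 28.6 CPM (SD, n = 6; -0.34, adjusted p = 0.675). GH 6 stood apart for Cd36 at 110 CPM against 36.7 to 47.3 in the other GH livers, and without it the log2 fold change was -0.70 (adjusted p = 0.200).

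Classes were also followed by library, as the mean log2(CPM + 0.5) over their tested genes. For the thioesterases this level was 3.66 ± 0.27 in PBS and 2.998 ± 0.10 in GH livers (SD, n = 6), with the lowest PBS liver, PBS 4, at 3.21 and the highest GH liver at 3.11. For the mitochondrial genes it was 7.53 ± 0.12 and 7.42 ± 0.06, for the peroxisomal genes 7.196 ± 0.24 and 6.97 ± 0.07, and for the activation and shuttle genes 7.25 ± 0.19 and 6.91 ± 0.08. The groups were separate for the thioesterases and overlapped for the other 4 classes. PBS livers also varied more among themselves: the SD of log2 values was wider in PBS than in GH livers for 29 of 37 genes (78.4%), beside 60.2% of all genes tested, with median SDs of 0.24 and 0.18. PBS 1 was the highest of its group for 21 of the 38 genes and PBS 6 for 11, while PBS 4 was the lowest for 16, PBS 5 for 11 and PBS 2 for 8.

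**Figure D4:**
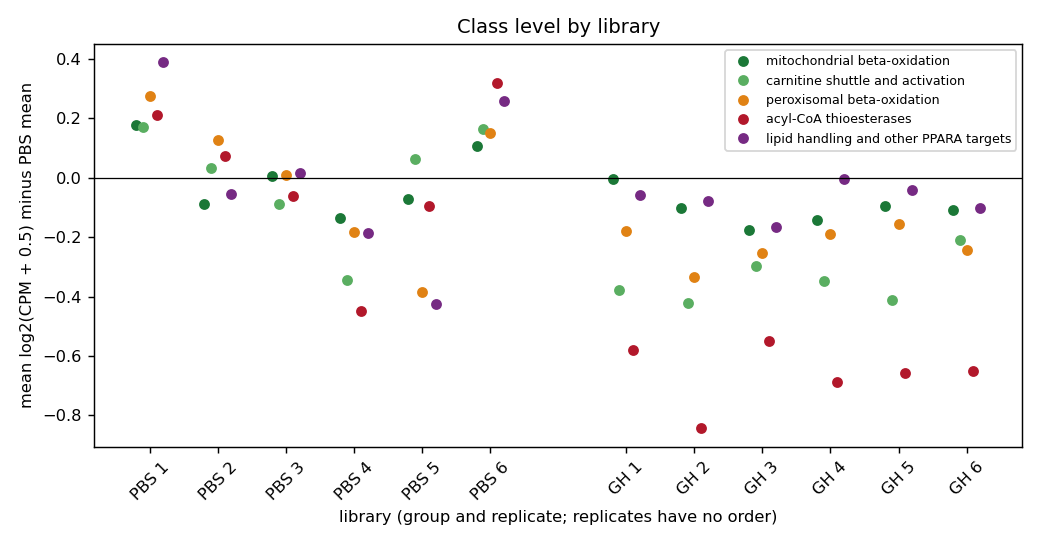
Mean log2(CPM + 0.5) of each class minus its PBS mean (y axis) in the 12 livers (x axis), 1 colour per class, over 5 to 11 tested genes. The thioesterases lie below the PBS mean by at least 0.5 in all 6 GH livers, and PBS 1 and PBS 6 lie above it and PBS 4 below it in all 5 classes.

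PPARA itself and other genes of the pathway were read from the same fit. Of a list of 73 other pathway genes, 68 were tested, with a median log2 fold change of -0.05. Of these 68, 2 were higher (2.94%, beside 2.27% of all genes) and 2 were lower (2.94%, beside 2.52%), both near the share over all genes. Of the 17 genes for PPARA and its partners 0 passed in edgeR and 0 in DESeq2, and 3 of them (17.6%) had an unadjusted p under 0.05, beside 19.0% of all genes. Ppara was at 99.3 ± 34.2 CPM in PBS and 108 ± 22.8 in GH livers (SD, n = 6; 0.13, adjusted p = 0.814). Its dimer partner Rxra was at 286 ± 38.7 and 267 ± 27.7 CPM (-0.10, adjusted p = 0.630), and the coactivator Ppargc1a was at 25.2 ± 9.18 and 26.3 ± 5.89 CPM (0.06, adjusted p = 0.924). Fgf21, a hormone induced by PPARA in fasting, was at 0.911 ± 0.389 and 0.408 ± 0.218 CPM (SD, n = 6; -1.15, adjusted p = 0.118). These levels rest on 118 counts summed over the PBS livers and 51 over the GH livers. Fgf21 passed without PBS 5 (0.0188), but not in the other 11 fits that left out 1 library (up to 0.221).

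Of the 24 other oxidation genes in this list, 2 were higher, beside 2.27% of all genes, and 1 was lower (4.17%, beside 2.52%). The list's other lower gene was Gk. Scp2, whose longer product is a peroxisomal thiolase for branched chains, was higher in GH livers without overlap, at 2545 ± 251 and 3644 ± 275 CPM (SD, n = 6), with a log2 fold change of 0.52 ± 0.08 (SE, adjusted p = 0.00156) that held whichever library was left out. Hsd17b10, a mitochondrial dehydrogenase, was higher (112 ± 10.3 and 136 ± 10.02 CPM, log2 fold change 0.28, adjusted p = 0.0353), a call lost without PBS 2, PBS 3, PBS 4, GH 1, GH 2, GH 3 or GH 5 (up to 0.0890). Acsm5, a medium-chain acyl-CoA synthetase, was lower (109 ± 10.7 and 85.1 ± 10.5 CPM, -0.36, adjusted p = 0.0251), a call lost without PBS 6, GH 3 or GH 4 (up to 0.0649). Gk, glycerol kinase, was lower (121 ± 19.7 and 88.0 ± 13.5 CPM, -0.46, adjusted p = 0.0333), a call that held only without PBS 3, PBS 4 or GH 6 among the 12 fits (otherwise up to 0.0825).

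Promoter windows of RefSeq (GRCm38.p6, 250 bases before to 50 after the start) were matched for 33 of the 38 genes, as 37 windows. The core motif AGGTCA, searched on both strands, occurred in 13 of the 37 windows (35.1%), beside 16.3% of 32851 windows of all genes. These 13 windows belong to 11 of the 33 genes, and the windows of Acot3 share the same match. Among genes with a window the core motif occurred in 1 of 7 that fell (Acot4) and in 9 of 25 that did not pass. The DR1 repeat (2 copies of AGGTCA in the same direction with any 1 base between them, the kind bound by PPARA with RXR) contains the core motif and occurred in 0 of the 37 windows, beside 0.0396% of all. The looser form of this repeat, with AGGNCA in place of each copy, occurred in 1 window (2.70%), that of Fabp1, beside 0.381% of all. The motif TTCNNNGAA, the kind bound by STAT5, occurred in 3 windows (8.11%), those of Cpt2, Hadha and Hadhb, beside 8.30% of all. The Hadha and Hadhb matches are 1 position between these divergent genes, so the 3 windows hold 2 positions. No window was matched for Acaa2, Vnn1, Crat, Decr1 and Angptl4.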

How the data were processed

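Liver total RNA of 12 mice (6 GH, 6 PBS) was sequenced from ribosomal-RNA-depleted, stranded libraries, per the labels' protocols. The submitters' processing notes list STAR 2.4.0i and mm10 (GRCm38). Which program counted reads, on which gene models, with or without strand, and what became of multi-mapped reads cannot be read from the labels (not given in the sources used here), so near-identical or opposite-strand genes may have shared reads. The authors deposited raw counts of exonic reads per gene, without normalization. Groups were taken from the treatment labels. The 38 genes, their classes, the pathway and marker lists and the pairs were chosen with earlier results of these data known.

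The analysis used edgeR 4.0.16 under R 4.3.3: filterByExpr (minimum count 10) kept 14235 of 38087 genes, libraries were scaled by TMM, and a robust quasi-likelihood fit on the group gave two-sided F tests with Benjamini-Hochberg adjustment (threshold 0.05). CPM are TMM-scaled; SE was taken from the F statistic (size of the log2 fold change over its square root). The common biological coefficient of variation was 0.168. Same-group libraries differed beyond counting noise (chi-square per degree of freedom 8.95 to 75.9), so none was counted as a duplicate. Pairs used a pseudocount of 0.5 and an exact permutation test. The 95% interval of Acot3 is exact, from pooled counts scaled to effective library size. The fits were tested on simulated data. Genes that passed the test are described in every library by lowest, median and highest value, those with an unadjusted p under 0.05 and many of the others by mean and SD, and the rest by fold change; of the pathway list, genes that passed and Ppara, Rxra, Ppargc1a and Fgf21 are named, and 1 further gene is not reported here. Acot5 and Acot6 (neighbours of the thioesterase genes) and Hsd17b4 were added after their values were seen. Alternatives were RLE size factors, totals alone, no filter, a minimum count of 30, DESeq2 1.42.0, the replicate number as a block, each library left out, GH 6 and PBS 5 left out together, and pseudocounts of 0.1 and 5 for the pairs. Coordinates and shared windows come from GENCODE M21 and promoters from RefSeq.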

Additional observations from a re-analysis of the deposited data

Results flagged for a closer look

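Within groups of 6 livers, 10 of 76 gene and group combinations held a single liver whose gap to its nearest neighbour passed Dixon's 95% limit, which chance passes in about 1 of 20 groups. PBS 5 was the low liver in 4 of them. Its Acot12 level was 68.3 CPM against 122 to 147 in the other PBS livers, and its Angptl4 level was 29.6 CPM against 124 to 181. Pex11a was at 17.2 CPM there against 31.6 to 37.2, and Fabp1 was at 981 CPM against 1620 to 1933. The other PBS liver apart was PBS 6, with Ehhadh at 320 CPM (319.7) against 227 to 246.

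Among GH livers, GH 5 was high for 3 genes: Slc25a20 at 69.3 CPM against 61.3 to 64.2, Decr2 at 112 CPM against 100.03 to 104, and Creb3l3 at 239 CPM against 177 to 199. Acot2 was low in GH 2, at 0.748 CPM against 1.14 to 1.23. Cd36 was high in GH 6, at 110 CPM against 36.7 to 47.3. PBS 5 and GH 6 were also among the livers that deviated most from their group over all genes, and the part of this deviation in the flagged values was not tested.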

How the results depend on the processing

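No gene of the set was higher under any of the 19 alternatives to the edgeR fit. The number lower was 9 with RLE size factors, 10 with totals alone, 8 without the filter and 8 with the stricter one. It was 10 in DESeq2, 11 without GH 6 and PBS 5, and 6 to 12 with 1 library left out. Acot3 entered the test, making 38 genes, when the filter, PBS 4 or any GH library was dropped. It was called lower each time, so fewer of the 37 genes were called there than these counts give. With PBS 4 or a GH library dropped, Acot3 passed the filter through its PBS counts alone, its GH counts being 0 to 3. Those calls therefore add no support. The stricter filter removed Acot2 and left 36 genes. Acaa1b, Acot4 and Ehhadh passed under every alternative. Without the filter the calls of Acot1 (adjusted p = 0.0745) and Vnn1 (0.0778) were lost, and without GH 6 and PBS 5 that of Acot1 (0.0567). Calls over all genes tested moved as well, from 682 in the edgeR fit. They were 683 with RLE size factors, 869 with totals alone, 642 without the filter and 680 with the stricter one. DESeq2 gave 1072 calls, leaving out GH 6 and PBS 5 gave 1022, and leaving out 1 library 434 to 854. The higher counts of the set with totals alone, in DESeq2 and without GH 6 and PBS 5 therefore came with more calls over all genes. In the pathway list, totals alone left 1 gene higher and DESeq2 gave 4 lower; with 1 library left out there were 1 to 3 higher and 0 to 2 lower. With 1 library left out, the median of the set ranged from -0.19 to -0.093, of thioesterases from -1.18 to -0.73, of peroxisomal genes from -0.32 to -0.19, of activation and shuttle genes from -0.34 to -0.13, of mitochondrial genes from -0.13 to -0.057, and of lipid handling genes from -0.083 to 0.028, a change of sign.

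No pairing of the livers by replicate number was seen: same-numbered deviations correlated at -0.20 to 0.18, and none of the 6 numbers gave the best match. The labels do not say what the numbers mark, and weak correlations cannot exclude a pairing. With the replicate block there were 391 calls over all genes and 6 of the set lower, without Acsl1 (0.0517), Crat (0.0625) and Acot2 (0.0713), and the pathway list had 1 gene higher and 1 lower. In the paired permutation the differences of -0.48 (Ehhadh minus Hadha) and -0.78 (Acaa1b minus Acaa2) had an adjusted p of 0.0938, the lowest that 2 pairs at the smallest possible p can reach.

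Small values changed sign. With totals alone, which moved the median of all genes to -0.06, Cpt2 was -0.034 and Acaa1a -0.0052; without GH 6 and PBS 5, Cpt2 was -0.024. With 1 library left out, Acadvl ranged from -0.044 to 0.015, Cpt2 from -0.048 to 0.062, Acaa1a from -0.0045 to 0.17, Pex11a from -0.014 to 0.17, Pdk4 from -0.27 to 0.013, Angptl4 from -0.30 to 0.028, Plin2 from -0.093 to 0.016, Ppargc1a from -0.039 to 0.26 and Acaa1a minus Acaa2 from -0.093 to 0.043. The causes were not tested. Depth limits Acot2 (15 to 69 counts per library) and Acot3 most.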
